A study of Mus musculus with 6 samples.

Results

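The acinar genes described here are 36 named rows of the gene table: 14 proteases, 5 genes for lipases and their cofactor colipase, 5 amylase genes, 1 ribonuclease, 6 granule or inhibitor proteins and 5 transcription factors. They were chosen by name from a table of 34945 gene symbols, and all 36 were found. The libraries came from pancreatic islets, 3 from Control and 3 from Jag1 mice. All mice, Control included, carried both RIP-Cre, in which the rat insulin promoter drives Cre mainly in β cells, and Rosa26-rtTA, an activator that needs doxycycline. All drank water with doxycycline for 8 weeks. Jag1 mice carried tetO_Jag1, a doxycycline-responsive allele of the Notch ligand Jag1, and Control mice lacked it. Age is not in the labels, nor whether the 3 libraries of a group are from different mice; p-values therefore reflect only how these libraries vary, which may be technical.

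Acinar cells make up most of the pancreas and secrete digestive enzymes, largely as inactive precursors called zymogens, into ducts that lead to the gut. Islets lie embedded in this tissue, so isolated islets usually carry some of it. The acinar programme is held by PTF1, a complex of the basic helix-loop-helix factor Ptf1a, a common E protein and Rbpjl, an acinar relative of the Notch effector Rbpj. Bhlha15 (Mist1), Nr5a2 and Gata4 act beside it in acinar development and secretion, and are also made by other cell types.

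Library totals ran from 14283469 to 34348729 counts. Hormone and granin genes of endocrine cells, the defining markers of islets, summed to 190330 to 244950 CPM (TMM-scaled counts relative to library size) across the 6 libraries. Jag1 itself had 59 to 78 counts in the Control libraries and 15356 to 18457 in the Jag1 libraries, with a log2 fold change of 7.52 (standard error, SE, 0.25, edgeR adjusted p = 1.54e-07).

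The acinar genes took very different shares of the libraries, and the difference lay within the groups. In Control 1 to 3 they held 14.1%, 5.02% and 0.583% of the counts (exact Clopper-Pearson 95% intervals 14.12 to 14.15, 5.006 to 5.027 and 0.5796 to 0.5875). In Jag1 1 to 3 they held 1.16%, 3.78% and 14.3% (1.152 to 1.162, 3.775 to 3.788 and 14.24 to 14.27). These intervals cover counting error only. Control 1 and Jag1 3 were high, Control 3 and Jag1 1 low, and the groups overlapped fully. The highest share was 24.4 times the lowest. Group means were 6.58% ± 6.91 in Control and 6.4% ± 6.93 in Jag1 (SD, n = 3 each). On the log2 scale Jag1 stood 0.20 above Control, with an exact two-sided permutation p of 0.9, where 3 against 3 cannot go below 0.1. The sign of this difference turned without Control 3 (-1.09, exact permutation p = 0.5) and without Jag1 3 (-0.73, p = 0.8). In bulk RNA, fewer acinar cells and less acinar RNA per cell cannot be told apart.

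**Figure D1:**
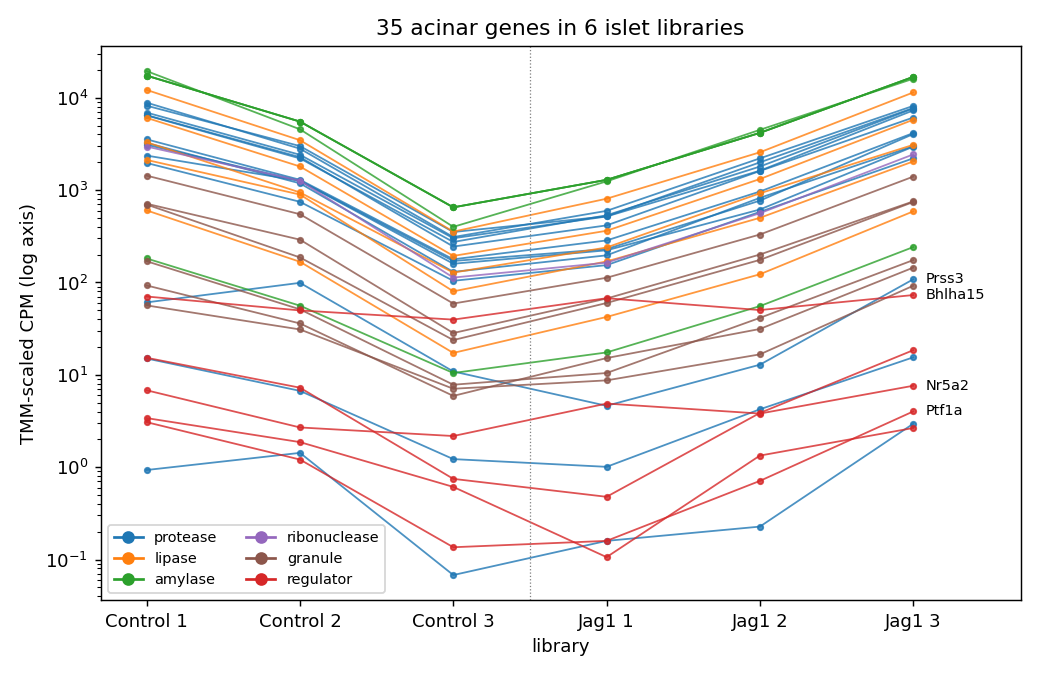
TMM-scaled CPM on a log axis for the 35 acinar genes that passed the count filter, 1 line per gene, coloured by role, across the 3 Control and 3 Jag1 libraries. Nearly all lines fall from Control 1 to Control 3 and are high again in Jag1 3, whereas Bhlha15 stays between 39.6 and 73.0 CPM.

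No acinar gene passed the test between Jag1 and Control islets. Cela3a had 0 to 10 counts per library and did not pass the filter on low counts; of the other 35, edgeR (quasi-likelihood, p adjusted after Benjamini and Hochberg) called 0, beside 0.0213% of all genes. An unadjusted p under 0.05 was met by 0 of the 35, against 4.97% of all genes, and DESeq2 called 0, against 0.256%. The CPM ranges of the groups overlapped for all 35, while they did not overlap for 10.5% of all genes. By edgeR, values leaned up in 13 genes and down in 22, with the identical rows Amy2a2 to Amy2a4 counted separately. Log2 fold changes ran from -0.54 to 0.49 with a median of -0.07, beside -0.004 over all genes. Of the 36 genes, 35 are listed in the authors' deposited table, and 0 have an adjusted p under 0.05. Signs depended on the method: there Pnlip had a log2 fold change of 0.26 and Amy2a5 0.49, both negative by edgeR. Rnase1 was negative in both, with -0.28 in the authors' comparison. The standard errors were large: Pnlip had a log2 fold change of -0.11 with an SE of 1.61, so a several-fold change in either direction could not have been told from the spread between libraries. Bhlha15 had the smallest SE, with 0.25 (SE 0.22, edgeR adjusted p = 0.955), and ran from 0.08 without Control 3 to 0.51 without Control 1.

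Within the acinar counts the mixture of enzymes varied far less than the total. The 25 enzyme genes (proteases, lipases, amylases and the ribonuclease, called the enzyme sum below) held 96.8% to 97.9% of the acinar counts in every library. Amylase, which splits starch, took 41.7% to 46.9%, lipases and colipase 13.7% to 15.8%, and elastases 11.3% to 12.4%. Carboxypeptidases took 8.53% to 9.64%, chymotrypsins 6.56% to 8.53% and trypsinogens 5.92% to 9.17%, and Rnase1 took 1.496% to 2.55%. The trypsinogen share varied 1.55-fold between its lowest and highest library, that of the ribonuclease 1.71-fold and that of elastases 1.10-fold, over a range in which the total share changed 24.4-fold. These are shares of counts, which favour long transcripts.

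**Figure D2:**
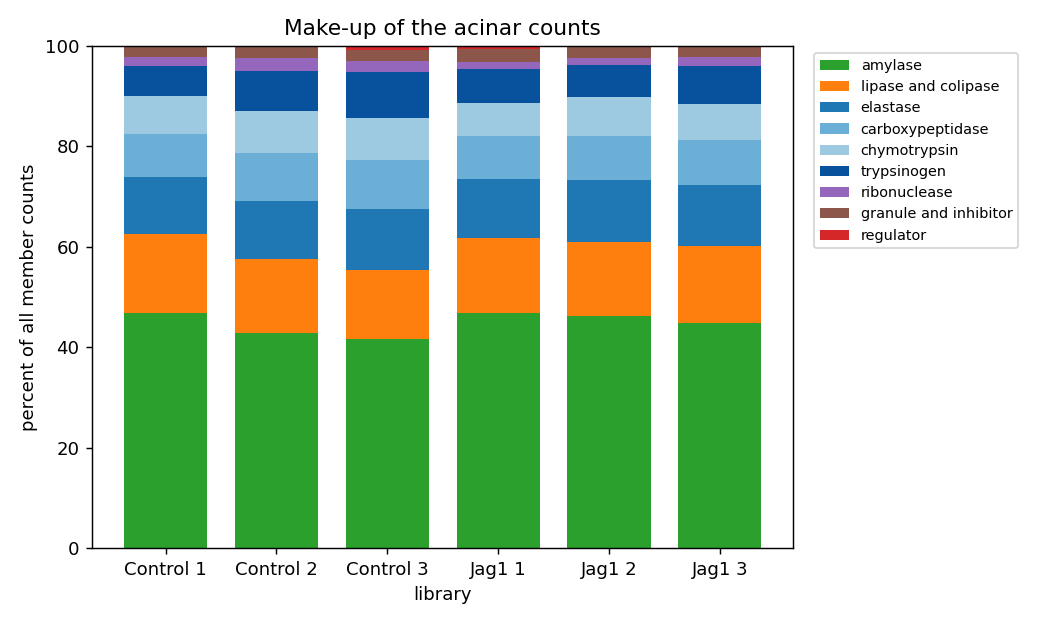
Stacked bars give the percent of all acinar member counts held by each gene family in each of the 6 libraries. Amylase holds 41.7% to 46.9% and the regulators are a thin line that reaches 0.764% in Control 3 and 0.669% in Jag1 1.

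Per length and per row the order was different. Divided by the length of the longest annotated transcript in GENCODE vM21, the chymotrypsinogen gene Ctrb1 ranked first at a mean of 4140 CPM per kb, followed by Cela2a at 3571 and Pnlip at 3446 CPM per kb. Cela2a and Pnlip changed places between libraries, with 7626 and 7670 CPM per kb in Jag1 3. Amy2a2, Amy2a3, Amy2a4 and Amy2a5 ranked after Prss2, with means of 2053 CPM per kb for the first 3 and 2071 for Amy2a5. The first 3 are equal parts of a single measurement, so this rank holds per row and not for their summed level. Their length was taken as 3717 bases, of which 1527 are coding. The transcription factors were low on this scale, as were Ctrc, Prss1 and Cela3a (7.65, 1.19 and 0.278 CPM per kb): Bhlha15 had 16.7 CPM per kb, Rbpjl 3.13, Ptf1a 1.03, Nr5a2 0.985 and Gata4 0.489.

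To measure co-variation without using the genes on themselves, an index was formed from 7 acinar genes that are not among the 36 (Pla2g1b, Klk1, Serpini2, Erp27, Pdia2, Aqp8 and Tmed6), as the mean of their log2 CPM. Both sets were chosen as acinar genes with earlier results of these data known. A further gene first chosen for the index was left out after values were seen. Positive slopes were therefore likely before the fit. The index was 6.16, 4.65 and 2.17 in the Control libraries and 2.89, 4.37 and 6.06 in the Jag1 libraries, in the order of their numbers. The slope of each gene on this index, in a fit that also held the group, gives its change in log2 level per log2 unit of the index. By the same edgeR test, 30 of 35 acinar genes had a positive slope past the threshold, against 0.796% of all genes tested, and 0 had a negative one, against 0.00711%. The 30 comprised 22 enzymes, all 6 granule and inhibitor genes, and the regulators Ptf1a and Rbpjl. Their median slope was 1.18, beside -0.001 over all genes. In the 30, the 22 and the median, Amy2a2, Amy2a3 and Amy2a4 count as separate rows although they are equal parts of a single measurement. Slopes above 1 are in part set by the index, since Tmed6 had a slope of only 0.42. Aqp8, also in the index, had only 0 to 17 counts and did not pass the filter. With both left out of the index (chosen after seeing the data), the slope was 1.09 for Amy2a5 and 0.895 for Try5. Against the log2 of the summed CPM of the same 7 genes, the 22 enzymes ran from 0.914 to 1.16. The genes that did not pass were Prss1, Prss3, Bhlha15, Nr5a2 and Gata4.

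Markers of other cell types were set beside the 0.796% of all genes that passed with a positive slope in the same fit. At that share, lists this short would hold few calls. None passed among 12 duct, 8 endocrine, 8 stellate and 6 endothelial markers. Median slopes were 0.01, -0.06, 0.23 and 0.04 in that order and 0.21 for immune markers, beside -0.001 over all genes. Among 6 immune markers, 1 passed (Cd74, slope 0.23, edgeR adjusted p = 0.0207), and the summed level of the 6 was 156 to 293 CPM in Control and 124 to 275 CPM in Jag1 libraries. The part of immune cells in the acinar slopes was not tested. Of 12 genes for receptors and granule release in acinar cells, 10 were tested and only Cckar, the cholecystokinin receptor gene that triggers enzyme secretion, passed (slope 1.18, SE 0.06, edgeR adjusted p = 2.42e-07). The small GTPase gene Rab3d, found on zymogen granules and also in endocrine cells, had a slope of -0.03 (SE 0.04). Of 6 further regulators, 5 were tested and none passed, with 0.02 for the secretory pathway factor Xbp1.

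**Figure D3:**
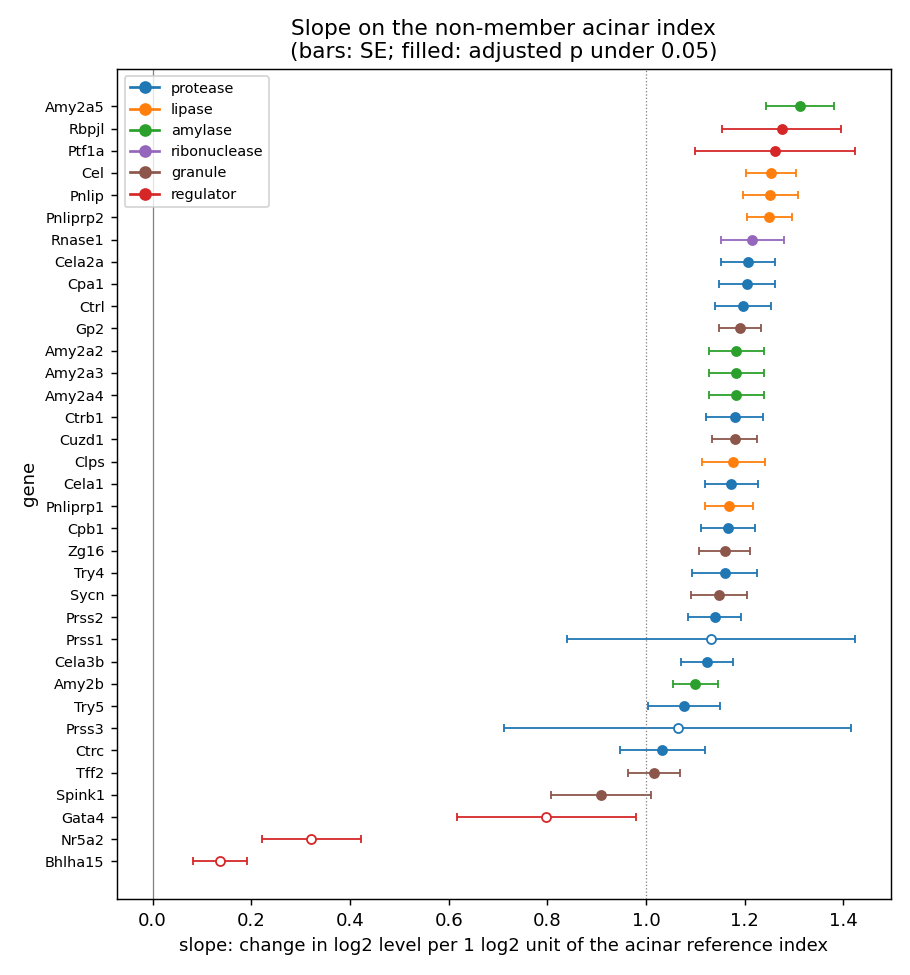
Slope of each of 35 genes on the acinar index (x axis, log2 per log2), with bars for 1 SE, coloured by role and filled where the edgeR adjusted p is under 0.05. Most lie between 1.03 and 1.31; Bhlha15 at 0.14 and Nr5a2 at 0.32 lie far to the left.

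Among the proteases, Cela2a, an elastase, measured 8848, 2807 and 310 CPM in the Control libraries and 596, 2206 and 8160 CPM in the Jag1 libraries. Ctrb1 had 8200, 2995 and 352 CPM in Control and 520, 1997 and 7745 CPM in Jag1 libraries. Cpb1, a carboxypeptidase that removes basic residues, had 6906, 2412 and 301 CPM in Control and 518, 1623 and 7289 CPM in Jag1 libraries. All 3 fell and rose together with the total, and the groups overlapped. As a share of the enzyme sum Cela2a stayed between 5.61% and 6.12%, a range of 0.13 on the log2 scale. Cpa1, a carboxypeptidase for other residues, had 6472, 2275 and 245 CPM in Control and 415, 1610 and 6104 CPM in Jag1 libraries. Ctrl, a chymotrypsin-like protease, had 3239, 1183 and 130 CPM and 197, 824 and 2984 CPM. Cpa1, Cela1, Ctrb1, Ctrl and Cpb1 had ratio ranges of 0.27 to 0.40 and Cela3b 0.54. Ctrc, the chymotrypsin that degrades trypsin, was much rarer, with 18 to 274 counts, and its ratio ranged by 1.23. It had 15.02, 6.70 and 1.22 CPM in Control and 1.009, 4.23 and 15.46 CPM in Jag1 libraries, with a slope of 1.03. Its annotated span, chromosome 4, 141814962 to 141846359 (GRCm38), holds that of Cela2a, and 19.2% of its 31-base words occur in Cela2a transcripts, so counts could be split between them. Cela3a shares 45.8% of its words with Cela3b, which had 1534 to 37397 counts.

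The trypsinogens, precursors of the protease that activates the other zymogens, lie together on chromosome 6 between 41302269 and 41525079. Prss2 had 3543, 1292 and 178 CPM in Control and 285, 965 and 4143 CPM in Jag1 libraries, with a slope of 1.14 (SE 0.05) and a ratio range of 0.46. Try4 (slope 1.16) and Try5 (1.08) also rose with the index, with wider ratio ranges of 0.59 and 0.88. Try5 ran from 1.58% of the enzyme sum in Control 1 to 2.91% in Control 3. Prss3 varied more, with a ratio range of 2.52. It had 60.9, 99.1 and 10.9 CPM in Control and 4.62, 12.9 and 108 CPM in Jag1 libraries. Relative to Prss2 its counts were 7.67% in Control 2 and 6.1% in Control 3, but 1.72% in Control 1 and 1.62%, 1.33% and 2.61% in Jag1 1 to 3. The groups overlapped, with 1 Control library among the Jag1 values. Its slope of 1.06 had an SE of 0.35 (edgeR adjusted p = 0.671). By the same test it passed without Control 1 (adjusted p = 3.31e-05) and without Control 1 and Jag1 3 together (7.21e-11). Those fits leave fewer residual degrees of freedom than the full fit, so their p-values lean on variance shared across genes. Prss1 had only 1 to 50 counts per library, at 0.932, 1.43 and 0.0679 CPM in Control and 0.159, 0.227 and 2.95 CPM in Jag1 libraries. Its slope of 1.13 (adjusted p = 0.192) passed without Control 1 (0.0204) and without Control 2 (0.0377).

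How closely these copies match bears on how reads can be assigned. The stretch below shows where Prss2 and Prss3 match least. Bases 281 to 340 of the coding sequence of Prss2 and Prss3, from GENCODE vM21 transcripts and counted from the start codon, hold the most differences of any stretch of 60. Capitals mark the 19 bases that differ. Over all 741 coding bases 84 differ, the most of any pair among Prss1, Prss2, Prss3, Try4 and Try5.
Prss2: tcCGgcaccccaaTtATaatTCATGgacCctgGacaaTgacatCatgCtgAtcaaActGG
Prss3: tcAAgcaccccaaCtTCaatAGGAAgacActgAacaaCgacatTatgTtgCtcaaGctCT
Prss1 and Prss3 differ at 27 of 741 bases and Try4 and Try5 at 19. Of the 31-base words in Prss3 transcripts, 75.4% also occur in another gene, most often the predicted gene Gm10334 (73.7%). The same holds for 82.8% of words in Try4, 69.3% in Prss1, 60.9% in Try5 and 22.6% in Prss2. Values of Prss1, Prss3, Try4 and Try5 are therefore uncertain as far as counting could split reads among them.

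Lipases stayed close to a common ratio. Pnlip, the main triglyceride lipase, had 12145, 3469 and 355 CPM in Control and 807, 2567 and 11406 CPM in Jag1 libraries. Cel, the bile salt-dependent lipase, had 6055, 1801 and 194 CPM and 363, 1318 and 5776 CPM. Pnliprp1, a related protein, had 3293, 943 and 128 CPM and 239, 923 and 3090 CPM. Pnliprp2, a further relative, had 603, 167 and 17.3 CPM and 42.3, 123 and 588 CPM. Each was high in Control 1 and Jag1 3 and lowest in Control 3, and the ratio ranges of all 5 lipase genes, colipase (Clps) and Pnliprp2 included, were 0.24 to 0.42. Pnlip, Cel and Pnliprp2 had slopes of 1.25 each, and Pnliprp1 and Clps 1.17 and 1.18. Pnlip formed 8.1% of the enzyme sum in Control 1 and 6.47% in Control 3. Between the groups none of the 5 passed, with log2 fold changes of -0.19 to -0.04.

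The amylase genes lie in a tandem cluster on chromosome 3, from 113147656 to 113356658. Amy2a2, Amy2a3 and Amy2a4 had the same count in every library, 316397 each in Control 1 and 9577 each in Control 3. Their annotated transcripts are identical, so the 3 rows are equal parts of a single measurement and not 3 measurements. At 17348, 5517 and 651 CPM in Control and 1292, 4166 and 16819 CPM in Jag1 libraries, each was 11.4% to 12.2% of the enzyme sum, a ratio range of 0.09. The 3 rows are themselves a large part of that sum, and relative to the other enzymes the range was 0.14, next to 0.13 for Cela2a with its own counts left out. Amy2a5 varied more, with a ratio range of 0.83. It had 19416, 4553 and 400 CPM in Control and 1243, 4493 and 16064 CPM in Jag1 libraries, the steepest slope (1.31, SE 0.07). Relative to the sum of Amy2a2 to Amy2a4 it was 37.3%, 27.5% and 20.5% in the Control libraries and 32.1%, 36.0% and 31.8% in the Jag1 libraries, and the groups overlapped. The coding sequence of Amy2a5 equals theirs over all 1527 bases, so only other transcript parts tell them apart, and 62.3% of its 31-base words are shared. Amy2b, annotated in GENCODE vM21 as an unprocessed pseudogene, had 182, 56.0 and 10.5 CPM in Control and 17.5, 55.5 and 242 CPM in Jag1 libraries, with 60.4% of its words shared.

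Rnase1, the pancreatic ribonuclease, rose with the index (slope 1.22, SE 0.06). It formed 1.97%, 2.62% and 2.06% of the enzyme sum in the Control libraries and 1.54%, 1.56% and 1.67% in the Jag1 libraries, with no overlap. Gp2, the main membrane protein of zymogen granules, lay the other way, with 0.465%, 0.387% and 0.433% in Control and 0.566%, 0.487% and 0.511% in Jag1 libraries. These 2 were the only ones of 35 whose ratios did not overlap, and the same was so for 2.44% of 82 other genes that rose with the index. Among those 82 are the 6 tested genes of the index itself, which follow it by construction. With the index in the fit, Rnase1 had a log2 fold change of -0.47 (SE 0.17, edgeR adjusted p = 0.788) and Gp2 0.31 (SE 0.11, adjusted p = 0.796). In that fit edgeR called 0 of 35 acinar genes, against 0.0213% of all genes, and 4 met an unadjusted p under 0.05, against 5.96%. The other two were Tff2, with 0.49 (SE 0.15, adjusted p = 0.688), and Amy2b, with 0.28 (SE 0.13, adjusted p = 0.830). Summed duct markers were at 530 to 562 CPM in Control and 646 to 658 CPM in Jag1 libraries, but without Spp1 they overlapped (480 to 531 CPM and 514 to 545 CPM). Summed stellate markers were at 179 to 224 CPM and 260.5 to 390 CPM, and without Rgs5 they overlapped (38.3 to 60.5 CPM and 37.4 to 135 CPM). The part of these cells in the ratios was not tested. In CPM, Rnase1 had 2960, 1262 and 113 in Control and 164, 562 and 2433 in Jag1 libraries.

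The other granule and inhibitor genes were Zg16 and Sycn, which encode zymogen granule proteins, Cuzd1, a granule membrane protein gene, Tff2, a trefoil peptide gene, and Spink1, the trypsin inhibitor gene. Zg16 had 1434, 548 and 59.1 CPM in Control and 112, 330 and 1399 CPM in Jag1 libraries, and Sycn 712, 291 and 28.3 CPM and 67.0, 201 and 754 CPM. Gp2 had 698, 187 and 23.8 CPM and 59.9, 175 and 743 CPM. All 3 rose with the index at slopes of 1.15 to 1.19, and Cuzd1 did so at 1.18. Spink1 was flatter, with 56.4, 30.99 and 7.07 CPM in Control and 8.71, 16.6 and 92.1 CPM in Jag1 libraries. Its slope was 0.91 (SE 0.10, adjusted p = 0.0127), and the call ended without Control 2 (0.0772), without Control 3 (0.0805) and without Jag1 1 (0.161). Relative to the enzyme sum it was lowest in Control 1 (0.0376%) and highest in Control 3 (0.129%). Tff2 had 92.8, 36.0 and 5.91 CPM in Control and 15.2, 31.4 and 145 CPM in Jag1 libraries, with a slope of 1.016 (SE 0.05).

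The 5 transcription factors divided by their slopes. Rbpjl had 15.3, 7.25 and 0.747 CPM in Control and 0.478, 3.86 and 18.5 CPM in Jag1 libraries, with a slope of 1.28 (SE 0.12, edgeR adjusted p = 0.000242). Ptf1a had 3.07, 1.21 and 0.136 CPM in Control and 0.159, 0.710 and 4.01 CPM in Jag1 libraries, with a slope of 1.26 (SE 0.16, adjusted p = 0.00176). Both followed the enzymes over a wide range but from few counts, 2 to 68 for Ptf1a and 9 to 313 for Rbpjl. The Ptf1a call ended without Jag1 3 (adjusted p = 0.0512) and without Control 1 and Jag1 3 together (0.143). Of the 31-base words of Ptf1a, 37.6% occur in its antisense gene Ptf1aos, and the sources used here do not state whether counting used strand. Gata4 had 2 to 62 counts, at 3.40, 1.87 and 0.611 CPM in Control and 0.106, 1.34 and 2.66 CPM in Jag1 libraries. Its slope of 0.80 (SE 0.18) did not pass (adjusted p = 0.0989), though it passed without Jag1 2 (0.0439).

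Bhlha15 kept a similar level while the enzymes varied. It had 70.5, 49.8 and 39.6 CPM in Control and 67.5, 50.3 and 73.0 CPM in Jag1 libraries, a range of 1.84-fold where the enzymes other than Cela3a, Prss1 and Prss3 spanned 15.3-fold to 48.5-fold. It was at 67.5 CPM in Jag1 1, where the acinar share was 1.16%, and at 49.8 CPM in Control 2, where that share was 5.02%. Its slope was 0.14 (SE 0.05, edgeR adjusted p = 0.592), and it was 0.07 without Control 1, 0.09 without Control 3, 0.22 without Jag1 1 and 0.02 when both Control 1 and Jag1 3 were left out. Nr5a2 had 6.80, 2.69 and 2.17 CPM in Control and 4.88, 3.81 and 7.61 CPM in Jag1 libraries, with a slope of 0.32 (SE 0.10, adjusted p = 0.359). That slope was 0.18 without Control 1 and 0.02 when both of those libraries were left out. Relative to the enzyme sum both were lowest in Control 1 and Jag1 3 and highest in Control 3 and Jag1 1, with ratio ranges of 3.94 for Bhlha15 and 3.35 for Nr5a2.

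**Figure D4:**
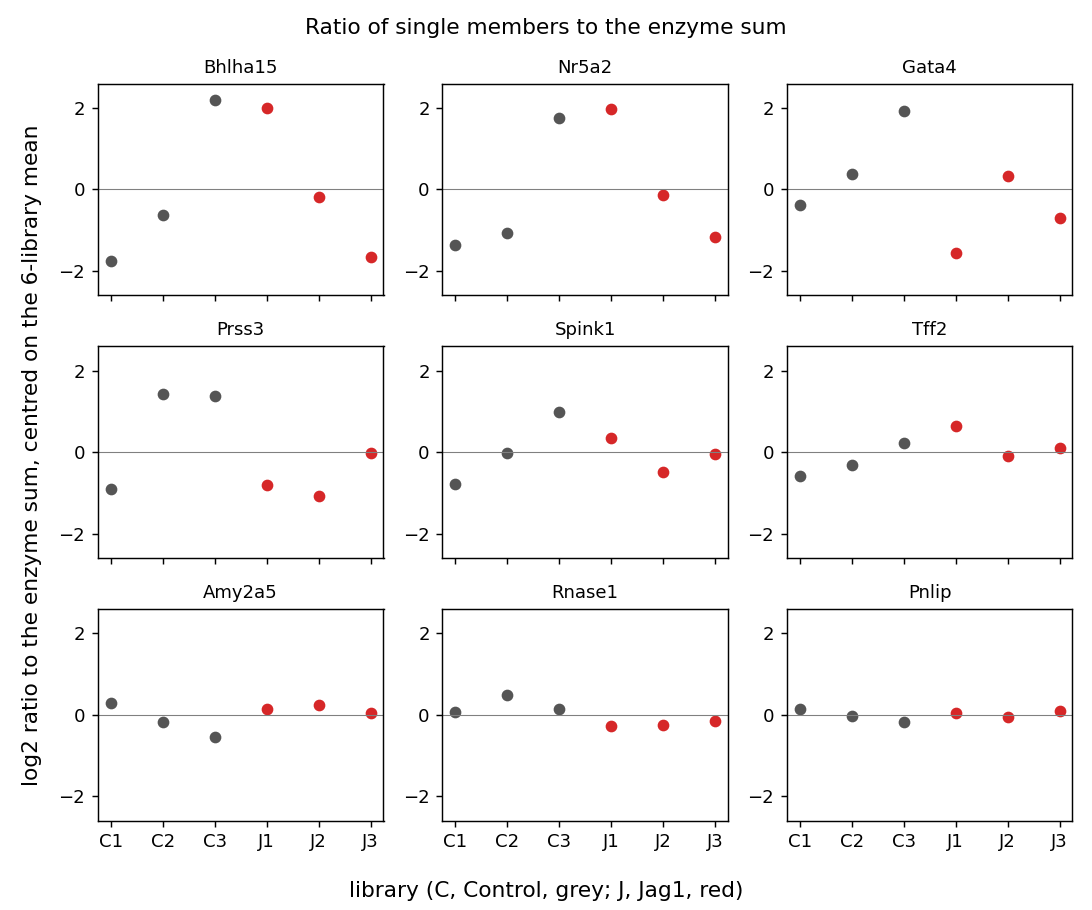
Log2 ratio of 9 genes to the enzyme sum in each library, centred on the mean of the 6 libraries, Control in grey and Jag1 in red. Pnlip and Rnase1 lie close to the line, with ranges of 0.32 and 0.76, whereas Bhlha15, Nr5a2, Gata4 and Prss3 range over 3.94, 3.35, 3.48 and 2.52. Gata4 had only 2 counts in Jag1 1, its lowest point.

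In all, 9 of the 35 genes had ratios to the enzyme sum that ranged over more than 1 on the log2 scale: Ctrc, Prss1, Prss3, Spink1, Tff2, Rbpjl, Bhlha15, Nr5a2 and Gata4. Just outside were Try5 (0.88), Ptf1a (0.88) and Amy2a5 (0.83), and just inside Tff2 (1.21) and Ctrc (1.23). Prss1, Gata4, Rbpjl and Ctrc had as few as 1, 2, 9 and 18 counts in a library, against 583 or more for Bhlha15. The part of counting error in these ranges was not tested. For the 22 enzymes other than Cela3a, Prss1 and Prss3, the SD of the log2 CPM over 6 libraries had a median of 1.92. That of the log2 ratio had a median of 0.15. The identical rows Amy2a2 to Amy2a4 count separately in both medians.

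The promoters of these genes were searched for elements that PTF1 binds. The part of such elements in the shared movement was not tested. PTF1 is known to bind a pair of elements, an E-box and a TC-box. RefSeq promoter sequence (GRCm38.p6, the 250 bases before the annotated start) was found for 29 of the 36 genes. The E-boxes CACCTG and CAGCTG and the TC-box TTTCCCA were searched on both strands. CACCTG was found in 16 of 29 genes, against 17.2% of all 32851 promoters in the table, CAGCTG in 6 (13.0% of all) and TTTCCCA in 6 (6.82%). Either E-box was found in 19 (27.7%), and an E-box with a TC-box, at any distance from each other within the window, in 5 (1.88%). Near-identical copies are among the 29, so they are not independent, and a match is only a description of the letters.

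The promoters below, chosen after the search, show a window with both elements (Cel and Prss2), with a TC-box alone (Cpa1), with E-boxes alone in a gene without a called slope (Bhlha15), and with none (Amy2a2). All run from 5′ to 3′ towards the start, and capitals mark the motifs.
Cel, chr2:28563404-28563653, minus strand: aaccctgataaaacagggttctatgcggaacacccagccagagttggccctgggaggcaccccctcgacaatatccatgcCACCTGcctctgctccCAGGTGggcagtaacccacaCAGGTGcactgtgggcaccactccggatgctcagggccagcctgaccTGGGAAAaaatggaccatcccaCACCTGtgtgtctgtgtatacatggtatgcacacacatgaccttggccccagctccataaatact
Prss2, chr6:41521526-41521775, plus strand: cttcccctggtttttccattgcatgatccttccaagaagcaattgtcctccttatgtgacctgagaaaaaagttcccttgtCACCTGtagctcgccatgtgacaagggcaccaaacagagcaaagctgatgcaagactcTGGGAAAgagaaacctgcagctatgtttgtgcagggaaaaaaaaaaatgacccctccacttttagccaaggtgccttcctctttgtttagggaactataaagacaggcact
Cpa1, chr6:30638968-30639217, plus strand: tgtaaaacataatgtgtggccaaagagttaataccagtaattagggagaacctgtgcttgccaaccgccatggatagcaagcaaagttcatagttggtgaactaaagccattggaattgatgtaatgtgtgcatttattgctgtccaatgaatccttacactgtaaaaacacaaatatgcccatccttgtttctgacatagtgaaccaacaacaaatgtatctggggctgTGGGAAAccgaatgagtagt
Bhlha15, chr5:144190036-144190285, plus strand: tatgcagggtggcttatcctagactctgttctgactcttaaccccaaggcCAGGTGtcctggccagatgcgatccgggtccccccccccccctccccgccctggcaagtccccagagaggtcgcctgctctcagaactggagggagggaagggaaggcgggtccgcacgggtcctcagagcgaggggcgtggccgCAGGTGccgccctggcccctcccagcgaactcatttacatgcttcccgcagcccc
Amy2a2, chr3:113356659-113356908, minus strand: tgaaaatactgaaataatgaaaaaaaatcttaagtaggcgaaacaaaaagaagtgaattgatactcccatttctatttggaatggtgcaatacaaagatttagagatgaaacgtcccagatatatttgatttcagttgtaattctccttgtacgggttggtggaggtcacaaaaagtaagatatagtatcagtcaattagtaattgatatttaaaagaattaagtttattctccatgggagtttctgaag
Cel holds 4 E-boxes, and its TC-box, read here as TGGGAAA, begins 87 bases before the start. In Prss2 the E-box begins 169 and the TC-box 111 bases before it, and in Cpa1 the TC-box 20 bases before. The Amy2a2, Amy2a3 and Amy2a4 windows are the same sequence. The last 112 bases of the Amy2a2 window are the first 112 of the Amy2a5 window, whose annotated start lies further downstream. That Amy2a5 window holds 1 CAGCTG E-box.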

How the data were processed

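The authors deposited estimated counts per gene symbol, as whole numbers without normalization, for 6 libraries. Bcl2fastq, kallisto and limma, with GRCm38 (mm10), are named in the submitters' processing notes; the annotation, versions and summing to genes are not given in the sources used here. Their own limma comparison was deposited as log2 fold changes, p-values and further statistics (a score each), per the file headers. A row that names no gene held 0.00896% to 0.0155% of counts and was left out.

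Counts, rounded to whole numbers, were tested over 14073 genes (filterByExpr, minimum count 10) with edgeR 4.0.16 in R 4.3.3: TMM, robust quasi-likelihood fit, Benjamini-Hochberg adjustment, threshold 0.05. Log2 CPM used a prior count of 2. The second fit held group and acinar index, leaving 3 residual degrees of freedom, and fewer with libraries left out. SE is the log2 value over the root of its F. The 3 counts that an observed 0 still allows amount to 0.0852 to 0.204 CPM. Both fits were also run on simulated data, with or without shifts in randomly chosen genes. Those data did not copy the departures of single libraries or the acinar gradient, so they do not test the acinar results. Alternatives used DESeq2 1.42.0, limma 3.58.1 (voom), other scalings, filters, designs and libraries. One further gene first chosen for the index is not reported here and was left out of it after values were seen. Members and lists were chosen with earlier results of these data known. Values per library are given by a rule: the 3 most abundant genes per role, all regulators, ratio ranges over 1 (log2), and up to 15 of the steepest called slopes. Words of 31 bases, kallisto's default, were compared among GENCODE vM21 transcripts. Coordinates are from GENCODE vM21. Ratios of single copies to each other and the printed promoters other than that of Amy2a2 were chosen after values were seen, as were marker sums without Spp1 or Rgs5 and enzyme ratios without a gene's own counts. No protein sequences were used here.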

Additional observations from a re-analysis of the deposited data

How the results depend on the processing

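No alternative called an acinar gene between Jag1 and Control: the count was 0 under other scalings, DESeq2, limma-voom, other filters, the non-robust fit, the replicate block, the index as covariate and each library left out. Over all genes the call count of 3 became 11 with total library size, 36 with DESeq2, 9 with no filter, 7 without Control 1 and Jag1 3 together (a choice made after seeing the data), and 2 to 6 with each library left out. The summed share difference of 0.20 ran from -1.09 to 1.21 with each library left out. Fold changes of single genes turned sign without being called: by limma-voom Cela2a had 0.20, Pnlip 0.27, Amy2a5 0.50 and Zg16 0.0704. With the index as covariate Cela2a had 0.0198, Pnlip 0.0763 and Amy2a5 0.30. With each library left out Cela2a ran from -1.51 to 1.22, Pnlip from -1.66 to 1.36, Amy2a5 from -1.50 to 1.55, Rnase1 from -1.99 to 0.61 and Zg16 from -1.62 to 1.011; Bhlha15 ran from 0.08 to 0.51. Without Control 1 and Jag1 3 together Amy2a5 had 0.21. The cause was not tested.

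The 30 slopes past the threshold became 29 to 32 with each library left out, 31 with no filter, and 30 under every other setting, an index without Tmed6 and Aqp8 (chosen after seeing the data) included. With no filter Spink1 did not pass (edgeR adjusted p = 0.0801) and Prss1 (0.0328) and Gata4 (0.0101) did.

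Deviations of same-numbered Control and Jag1 libraries had correlations across genes of -0.19, 0.11 and -0.29, and those of differently numbered ones -0.16 to 0.29. The labels state no pairing, and whether the numbers pair the libraries cannot be told from these values. The replicate block gave 3 calls and 0 acinar genes, and Amy2a5 had 0.14 in it. Sign flips of the paired shares gave 0.20 (exact permutation p = 1). Ptf1a, Prss1 and Gata4 had at most 68, 50 and 62 counts in a library, and what this does to their slopes was not tested.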

Other observations

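Further copies of the trypsinogen cluster were set against Prss2 after the Prss3 values were seen, and they differed among themselves. The predicted gene Gm5771, with which Prss1 shares 54.8% of its 31-base words, had 0.522%, 3.32% and 2.52% of the Prss2 count in the Control libraries and 0.354%, 0.115% and 0.699% in the Jag1 libraries. Gm10334 stood at 0.327%, 1.84% and 1.22% in Control and at 0.428%, 0.183% and 0.437% in Jag1 libraries. Both were highest in Control 2 and Control 3, as Prss3 was. Gm2663, with 0 to 192 counts, was highest in Control 2 (0.817%) and had no counts in Control 3, and 1810009J06Rik was highest in Control 3 (0.954%), ahead of Control 2 (0.328%). Try10 lay otherwise, lowest in Control 3 (0.458%) and highest in Jag1 2 (0.918%). The abundant trypsinogen-like gene 2210010C04Rik had 127% to 175% in Control and 127% to 157% in Jag1 libraries. Gm10334 shares sequence with Prss3, so their values are not independent.

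The neighbouring amylase gene Amy2a1, also outside the 36 genes, had counts of 163647, 26918 and 3536 in the Control libraries and 12592, 75594 and 165597 in the Jag1 libraries. Its slope on the acinar index was 1.26 (SE 0.07, edgeR adjusted p = 4.05e-07). Amy1, the salivary and liver amylase gene, had 41 to 375 counts and a slope of 0.75 (SE 0.08, edgeR adjusted p = 0.000361).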
